A study of Mus musculus with 6 samples.

Results

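The genes of the major histocompatibility complex (MHC, called H2 in the mouse) and their antigen presentation partners were followed across mouse prostate tumors of 2 genotypes and normal prostate. Members were the rows of the count table whose symbol starts with H2-, together with B2m, Tap1, Tap2, Tapbp, Psmb8, Psmb9, Psmb10, Nlrc5, Ciita and Cd74. This gave 53 of the 24091 genes in the table, of which 43 carry an H2- symbol. Class I comprised 40 genes (heavy chains, light chain, transporter, loading factor, immunoproteasome and regulator) and class II 12 genes (α and β chains, peptide editors, invariant chain and regulator). H2-Ke6 bears the H2- prefix but encodes a hydroxysteroid dehydrogenase, and it was counted in neither class.

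RNA was sequenced in 6 libraries, 2 from each of 3 groups. The 12Q group was prostate tumors of males with a humanised allele coding for a tract of 12 glutamines, and the 48Q group was tumors of males with 48 glutamines in the same tract. Both tumor genotypes also carried Ctnnb1(Ex3)L/wt, a conditional allele whose recombination removes the exon whose residues target β-catenin for degradation, and the PBCre-4 transgene, in which a probasin promoter drives Cre recombinase in prostate epithelium. The third group, WT, was normal prostate of wild-type mice, which lacked all 3 alleles. Genotype, tumor and tissue makeup therefore cannot be told apart in either comparison with WT, whereas the labels of 12Q and 48Q tumors differ in the glutamine tract alone. The sources used here give neither age nor mouse strain. Each group held 2 libraries that the labels do not tie to separate animals, so p-values measure the spread between these libraries.

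Class I molecules consist of a heavy chain, β2-microglobulin (B2m) and a peptide cut by the proteasome in the cytosol, and nearly all nucleated cells carry them to show internal proteins to CD8 T cells and NK cells. Class II molecules consist of an α and a β chain that travel with the invariant chain (Cd74) to endosomes, where peptides of ingested proteins are loaded for CD4 T cells. Class II is normally made by dendritic cells, macrophages and B cells, and interferon-γ can induce it in epithelium. The regulators NLRC5 (class I) and CIITA (class II) bind no DNA themselves but act through factors on short promoter elements, the X boxes and the Y box, and class I promoters also hold sites for interferon regulatory factors and NF-κB.

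These elements are shown because the class I and class II groups moved differently in the comparisons below. The lines give the 250 bases before the annotated start of 7 members, read 5′ to 3′ in the direction of the gene, from RefSeq promoters on mm10 (GRCm38.p6). Capitals mark matches to TGACG (the core of the X2 box), ATTGG (the core of the Y box), AANNGAAA (an interferon regulatory factor core) and GGGATTCCC (an NF-κB site), each searched on both strands.
H2-K1: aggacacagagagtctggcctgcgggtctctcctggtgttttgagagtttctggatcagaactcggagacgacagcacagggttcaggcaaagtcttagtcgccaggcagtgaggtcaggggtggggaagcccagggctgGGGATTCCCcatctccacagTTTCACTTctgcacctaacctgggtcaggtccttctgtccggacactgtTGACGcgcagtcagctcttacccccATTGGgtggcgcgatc
H2-D1: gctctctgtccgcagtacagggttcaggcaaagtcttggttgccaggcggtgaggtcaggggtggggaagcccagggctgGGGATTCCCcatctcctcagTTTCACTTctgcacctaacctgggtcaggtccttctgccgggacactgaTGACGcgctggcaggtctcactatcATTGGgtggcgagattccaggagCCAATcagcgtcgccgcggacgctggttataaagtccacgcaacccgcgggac
H2-T23: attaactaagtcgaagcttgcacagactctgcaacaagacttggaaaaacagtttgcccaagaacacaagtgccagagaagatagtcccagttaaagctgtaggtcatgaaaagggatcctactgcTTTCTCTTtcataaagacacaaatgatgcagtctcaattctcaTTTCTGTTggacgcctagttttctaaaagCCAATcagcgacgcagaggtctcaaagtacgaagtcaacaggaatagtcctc
B2m: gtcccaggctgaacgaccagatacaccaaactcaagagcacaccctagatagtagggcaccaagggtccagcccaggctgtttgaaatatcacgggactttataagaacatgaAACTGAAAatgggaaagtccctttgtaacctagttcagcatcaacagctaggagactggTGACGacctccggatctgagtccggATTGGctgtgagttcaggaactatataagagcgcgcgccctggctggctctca
Tap1: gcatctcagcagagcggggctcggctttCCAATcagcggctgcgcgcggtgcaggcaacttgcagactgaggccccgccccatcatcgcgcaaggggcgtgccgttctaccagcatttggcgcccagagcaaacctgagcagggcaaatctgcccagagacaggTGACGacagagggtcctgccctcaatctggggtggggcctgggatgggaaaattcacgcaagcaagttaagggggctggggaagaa
H2-Aa: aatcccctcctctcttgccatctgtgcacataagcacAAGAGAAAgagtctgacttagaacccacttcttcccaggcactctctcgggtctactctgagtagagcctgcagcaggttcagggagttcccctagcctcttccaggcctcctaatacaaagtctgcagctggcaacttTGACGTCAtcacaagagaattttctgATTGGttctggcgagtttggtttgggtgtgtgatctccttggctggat
H2-Eb1: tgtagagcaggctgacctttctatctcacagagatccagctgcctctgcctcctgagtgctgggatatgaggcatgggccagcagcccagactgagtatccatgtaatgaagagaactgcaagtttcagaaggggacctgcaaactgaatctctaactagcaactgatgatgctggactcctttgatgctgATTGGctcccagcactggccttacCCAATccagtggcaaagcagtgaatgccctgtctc
The windows lie at chr17:34000348-34000597 (minus strand) for H2-K1, chr17:35262844-35263093 (plus) for H2-D1, chr17:36032702-36032951 (minus) for H2-T23, chr2:122147437-122147686 (plus) for B2m, chr17:34187306-34187555 (plus) for Tap1, chr17:34287824-34288073 (minus) for H2-Aa and chr17:34305617-34305866 (plus) for H2-Eb1.

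In H2-K1 and H2-D1 the NF-κB match, the interferon regulatory factor match, TGACG and ATTGG follow each other in the same order, with the first beginning 110 bases before the start in H2-K1 and 170 bases before it in H2-D1. The H2-Aa promoter holds TGACGTCA, in which the matches on both strands overlap, 74 bases before the start, followed by ATTGG 48 bases before it. H2-T23 holds 2 interferon regulatory factor matches and 1 Y box match. Of the 53 members, 38 had an entry in the promoter table. Over windows of 300 bases (250 before the start and 50 from it on), ATTGG occurred in 24 of 29 class I and 7 of 8 class II promoters, against 37.9% of all 27025 promoters. TGACG was found in 14 of 29 and 1 of 8 (21.02% of all), AANNGAAA in 16 of 29 and 3 of 8 (24.2% of all), and GGGATTCCC in 4 of 29 and 0 of 8 (0.37% of all). These are matches of letters and were not measured as sites of binding, and the class I promoters include near-copies of one another.

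Libraries held 26416181 to 28559546 counts, and the 53 members took 0.197% and 0.216% of them in WT, against 0.371% and 0.399% (48Q) and 0.309% and 0.491% (12Q). Levels are given as CPM (counts scaled to a common library size) on library sizes scaled by TMM, a normalisation that assumes most genes do not differ. The TMM factors ran from 0.708 to 0.811 in WT and from 1.02 to 1.24 in tumors. Without that scaling the median gene moved by 0.48 (12Q against WT), 0.71 (48Q against WT) and -0.19 (12Q against 48Q) on the log2 scale, in place of -0.01, 0.02 and 0.00. Differences were tested with edgeR's quasi-likelihood test in 1 fit of all 6 libraries, with Benjamini-Hochberg adjustment over the 15050 genes tested. A gene was called where its adjusted p was under 0.05. The 12Q against WT test called 11.2% of all genes higher and 11.2% lower, the 48Q against WT test 3.95% and 1.23%, and the 12Q against 48Q test 1.01% and 3.16%. Of the 53 members, 36 passed the filter on low counts, comprising 25 in class I, 10 in class II and H2-Ke6, and 8 members had no count in any library.

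All 43 H2- genes and 5 of the other members lie on chromosome 17, between bases 33919478 and 37483529 of mm10. B2m lies on chromosome 2, Nlrc5 and Psmb10 on 8, Ciita on 16 and Cd74 on 18. Psmb9 and Tap1 point away from each other, with their starts 226 bases apart. In the deposited table the spans of 17 members overlap that of another member. The H2-T23 row spans 36029977 to 36111426 and so takes in H2-T22, H2-Bl and part of H2-T-ps, whereas GENCODE M21 ends H2-T23 at 36032855. The H2-Eb1 row begins at 34264832 and takes in H2-Aa and part of H2-Ab1, although M21 begins that gene at 34305867. The H2-D1 row overlaps that of H2-L, which had no count in any library. Reads shared between such rows may be assigned to either gene or dropped. Single values of the Q and T region genes are therefore uncertain, as are those of H2-D1, H2-Aa, H2-Ab1 and H2-Eb1. Exons of Tapbp, Psmb8, Tap1, Tap2, Psmb9, Nlrc5, H2-DMa, H2-Oa, Cd74 and Ciita overlap those of another gene in M21. So do those of H2-Q4, H2-T-ps, H2-T10, H2-T22 and H2-Ke6. The sources used here do not give whether reads were counted by strand.

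In 12Q tumors the class I pathway was higher than in WT at several of its steps, from the immunoproteasome to the heavy chains, whereas class II was not. Of the 25 class I members tested, 8 were called higher (11.2% of all genes were) and 0 lower (11.2% of all). The 8 include H2-T-ps and H2-M9, which met the filter on low counts only with the 12Q libraries included, so a rise in 12Q was favoured for them. DESeq2 called 10 higher and 0 lower, and 11 were higher and 0 lower at an unadjusted p under 0.05. The median log2 fold change of these 25 was 1.18, and 22 were above 0, beside a median of -0.01 over all genes tested. Of the 10 class II members tested, edgeR called 0 in either direction, as did DESeq2, with a median of -0.01 and 0 at an unadjusted p under 0.05 (1 with DESeq2). Without the second 12Q library the class I median was 0.77 and 15 of 25 were above 0, and the number called was 4.

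**Figure D1:**
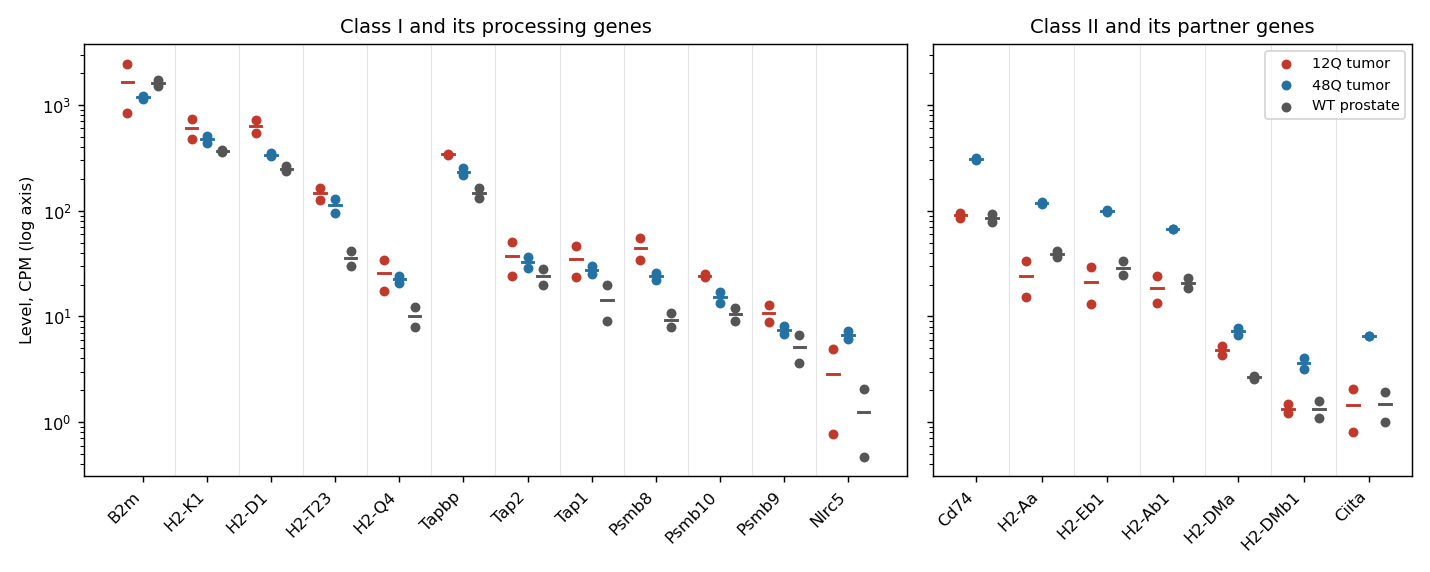
Levels of 12 class I and 7 class II pathway genes in CPM (log axis), with 1 point per library, bars at group means and 2 libraries per group. Psmb8 and H2-T23 lie higher in all 4 tumor libraries than in WT, while Cd74 and the class II chains are highest in 48Q tumors, such as 314 and 303 CPM for Cd74 against 78.4 to 94.4 CPM elsewhere.

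The classical heavy chains present peptides to CD8 T cells. H2-D1 stood at 723 and 540 CPM in 12Q tumors, 350 and 329 CPM in 48Q tumors and 262 and 237 CPM in WT prostate. The 3 groups did not overlap, and the 12Q libraries were highest. H2-D1 rose in 12Q against WT (log2 fold change 1.34 ± 0.28 SE, edgeR adjusted p = 0.0218), but the adjusted p was 0.0516 to 0.0843 when either WT or either 48Q library was left out. Against WT, 48Q tumors differed by 0.44 ± 0.27 (adjusted p = 0.358), and 12Q differed from 48Q by 0.90 ± 0.28 (adjusted p = 0.111).

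H2-K1, the other classical heavy chain, was at 746 and 479 CPM in 12Q, 508 and 437 CPM in 48Q and 357 and 373 CPM in WT. All 4 tumor libraries were above both WT libraries, while the tumor groups overlapped. None of its differences passed the test, with 0.75 ± 0.32 for 12Q against WT (edgeR adjusted p = 0.136), 0.37 ± 0.31 for 48Q against WT (0.498) and 0.37 ± 0.31 for 12Q against 48Q (0.473). Per kilobase of transcript, H2-D1 stood at 1.19 and 1.39 times H2-K1 in the 12Q libraries, and at 0.848 and 0.926 times in 48Q and 0.903 and 0.783 times in WT. Of the 50-base windows in their transcripts, 12.8% (H2-D1) and 9.63% (H2-K1) also occur in another gene, so some reads cannot be placed between them. The alleles of these genes differ between mouse strains, and how many reads matched the reference allele was not tested.

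Of the 29 other class I heavy chain genes 15 were tested, and 4 rose in 12Q against WT (11.2% of all genes were called higher). H2-T23 encodes Qa-1, which carries leader peptides of other class I chains and is read by receptors of NK cells. It was measured at 164 and 127 CPM in 12Q, 130 and 94.7 CPM in 48Q and 41.6 and 30.0 CPM in WT. All tumor libraries lay above both WT libraries and the tumor groups overlapped. H2-T23 rose by 2.03 ± 0.30 on the log2 scale in 12Q (edgeR adjusted p = 0.00863) and by 1.65 ± 0.29 in 48Q (adjusted p = 0.0361) against WT, and 12Q differed from 48Q by 0.38 ± 0.28 (adjusted p = 0.426). The rise in 12Q passed the test in all 12 alternative settings tried, among them each library left out in turn. In 48Q the adjusted p was 0.0727 to 0.201 without either WT or either 48Q library.

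H2-Q4, the next most abundant of these genes, had 17.2 and 33.95 CPM in 12Q, 24.3 and 20.8 CPM in 48Q and 7.98 and 12.3 CPM in WT. Tumor libraries were again all above WT, at 1.33 ± 0.42 (12Q, edgeR adjusted p = 0.0668) and 1.15 ± 0.42 (48Q, 0.157), without passing the test. For H2-Q4, 36.4% of the 50-base windows are shared with another gene. The other members that passed lay under 10 CPM, and they are named because they passed. H2-T24 was at 2.63 and 6.19 CPM in 12Q, 9.42 and 4.88 CPM in 48Q and 0.730 and 0.707 CPM in WT. It rose against WT in 12Q (2.61 ± 0.65, edgeR adjusted p = 0.0356) and in 48Q (3.31 ± 0.67, 0.0474). The call was lost in 7 of 12 alternative settings in 12Q (adjusted p up to 0.11) and in 5 of 12 in 48Q (up to 0.248).

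The pseudogene H2-T-ps was at 0.703 and 1.15 CPM in 12Q, 0.301 and 0.257 CPM in 48Q and 0.156 and 0.133 CPM in WT (12Q against WT 2.65 ± 0.71, edgeR adjusted p = 0.0436). Its call held in 2 of the 12 alternative settings, and its row lies inside the H2-T23 row in part. H2-M9, a gene of the M region, had 21 and 38 counts in the 12Q libraries, 0 and 1 in those of 48Q and 0 and 0 in WT, so it was found almost only in 12Q libraries. Both H2-T-ps and H2-M9 met the filter on low counts only with the 12Q libraries included. The filter thus favoured a rise in 12Q for both, and their p-values do not allow for that. With 3 counts per library as the floor, H2-M9 was at least 6.75-fold higher in 12Q than in WT (edgeR adjusted p = 0.0241, and 0.0501 to 0.0763 with each library left out). Against 48Q the ratio of pooled CPM was 67.9 (95% counting interval 11.7 to 2726, edgeR adjusted p = 0.0578), an interval that covers counting error only. H2-M3, which presents formylated peptides of bacteria and mitochondria, stood at 3.65 to 5.66 CPM in all 6 libraries.

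B2m, the light chain that every class I molecule needs, did not follow the heavy chains. It was at 2465 and 846 CPM in 12Q, 1224 and 1146 CPM in 48Q and 1728 and 1524 CPM in WT, so that the 12Q libraries held both the highest and the lowest level. The differences were 0.03 ± 0.54 for 12Q against WT (edgeR adjusted p = 0.979), -0.46 ± 0.54 for 48Q against WT (0.639) and 0.48 ± 0.54 for 12Q against 48Q (0.595). B2m was the most abundant member per kilobase, with a mean of 1743 CPM per kilobase over the 6 libraries against 218 for H2-D1 and 210 for H2-K1. The ratio of H2-D1 to B2m per kilobase was 0.134 and 0.292 in the 12Q libraries, 0.131 and 0.131 in those of 48Q and 0.0694 and 0.0711 in WT. The ratio of H2-K1 to B2m was 0.112 and 0.211, 0.154 and 0.142, and 0.0769 and 0.0909 in the same order. Both ratios were higher in each tumor library than in either WT library.

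The transporter TAP carries cytosolic peptides into the endoplasmic reticulum, and tapasin (Tapbp) bridges it to the empty class I molecule. Tapbp stood at 343 and 338 CPM in 12Q, 253 and 216 CPM in 48Q and 132 and 164 CPM in WT. The groups did not overlap and followed the order 12Q, 48Q, WT. Tapbp rose in 12Q against WT by 1.20 ± 0.25 on the log2 scale (edgeR adjusted p = 0.0211), with adjusted p from 0.0555 to 0.0785 when the first WT or either 48Q library was left out. The 48Q difference from WT was 0.66 ± 0.24 (adjusted p = 0.161).

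Tap1 had 23.3 and 46.3 CPM in 12Q, 29.9 and 25.3 CPM in 48Q and 9.02 and 19.6 CPM in WT. Its tumor libraries lay above WT, without passing the test in 12Q (1.28 ± 0.49, edgeR adjusted p = 0.106) or 48Q (0.94 ± 0.48, 0.277). Tap2, the partner chain in the transporter, was at 23.9 and 50.4 CPM, 36.6 and 28.6 CPM and 19.8 and 28.3 CPM in the same order, and its 12Q and WT libraries overlapped (0.63 ± 0.41, adjusted p = 0.305). Of 7 further loading genes (Calr, Canx, Pdia3, Erap1, Tapbpl, Hspa5 and Sec61a1), edgeR called 0 in any of the 3 comparisons, with medians of -0.73 and -0.94 for 12Q and 48Q against WT. At an unadjusted p under 0.05, 2 (12Q) and 3 (48Q) of them were lower than in WT and 0 differed between tumors, and DESeq2 called 2 lower in each comparison with WT and 0 between tumors.

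The immunoproteasome subunits Psmb8, Psmb9 and Psmb10 replace the catalytic subunits Psmb5, Psmb6 and Psmb7 and shift the cut peptides towards those that class I binds. Psmb8 was at 33.9 and 54.8 CPM in 12Q, 25.98 and 22.05 CPM in 48Q and 7.88 and 10.7 CPM in WT, 3 groups that did not overlap. Psmb8 rose by 2.25 ± 0.35 on the log2 scale in 12Q against WT (edgeR adjusted p = 0.01), a call that held in all 12 alternative settings. Its 48Q difference was 1.37 ± 0.34 (adjusted p = 0.0713), and 12Q differed from 48Q by 0.88 ± 0.33 (0.161).

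Psmb10 had 23.6 and 25.01 CPM in 12Q, 16.8 and 13.5 CPM in 48Q and 9.02 and 12.0 CPM in WT, again without overlap. It rose in 12Q against WT (1.21 ± 0.30, edgeR adjusted p = 0.036), but the adjusted p was 0.0569 to 0.107 without either 12Q, either 48Q or the first WT library. Psmb9 was at 8.92 and 12.8 CPM in 12Q, 8.16 and 6.76 CPM in 48Q and 3.65 and 6.63 CPM in WT (12Q against WT 1.08 ± 0.45, adjusted p = 0.132). Of the 17 genes of the constitutive proteasome and its activators, edgeR called 2 higher in 12Q against WT (median 0.32, and 11.2% of all genes were called higher), namely Psmb5 (1.29 ± 0.35, adjusted p = 0.043) and the activator subunit Psme1 (1.20 ± 0.22, 0.0155). It called 0 of 17 in 48Q against WT (median -0.38, 1 lower at an unadjusted p under 0.05 and 0 with DESeq2).

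The mRNA of these subunits was also read as ratios within each library, which no scaling of libraries can change. Such ratios do not measure the exchange of subunits in the proteasome itself. Per kilobase, Psmb8 stood at 1.22 and 2.10 times Psmb5 in the 12Q libraries, 1.77 and 2.25 times in those of 48Q and 0.661 and 1.07 times in WT. The ratio of Psmb10 to Psmb7 was 0.458 and 0.733 in the 12Q libraries, 0.667 and 0.550 in those of 48Q and 0.214 and 0.399 in WT. Both ratios were higher in all 4 tumor libraries than in WT, with no gap between the tumor groups. The ratio of Psmb9 to Psmb6 was 0.0853 and 0.214, 0.186 and 0.155, and 0.0466 and 0.122 in the same order, and its 12Q and WT libraries overlapped.

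**Figure D2:**
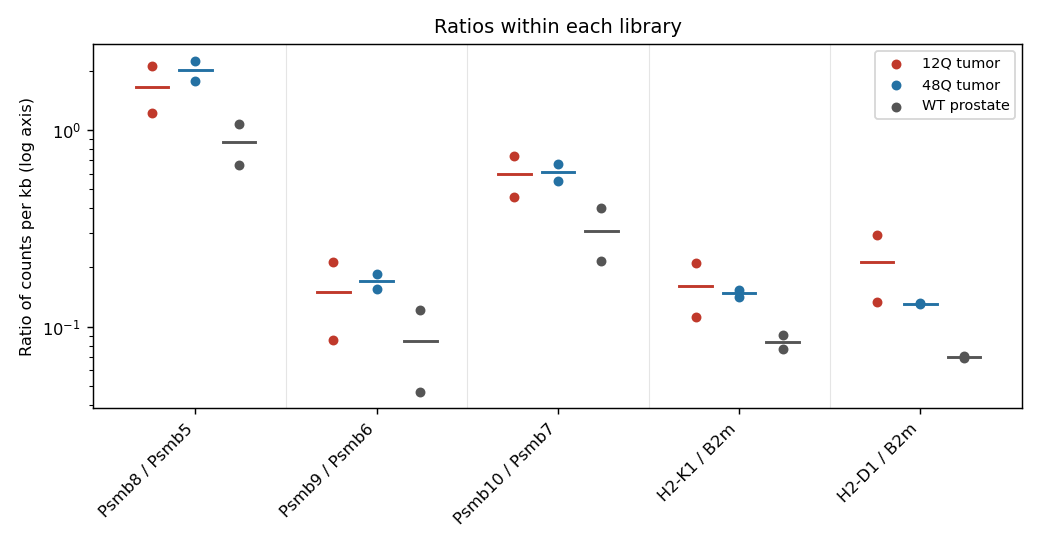
Ratios of counts per kilobase between 2 genes of the same library (log axis), with 1 point per library, bars at group means and 2 libraries per group. In 4 of the 5 ratios every tumor library lies above both WT libraries, and for Psmb9 to Psmb6 the first 12Q library (0.0853) lies below the second WT library (0.122).

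Nlrc5, which drives transcription of class I genes, was a low-count member at 0.777 and 4.92 CPM in 12Q, 7.20 and 6.05 CPM in 48Q and 0.469 and 2.03 CPM in WT. The 48Q libraries were highest, and the 12Q and WT libraries overlapped. Nlrc5 did not pass the test in 12Q against WT (1.18 ± 1.00, edgeR adjusted p = 0.426), 48Q against WT (2.39 ± 1.03, 0.214) or 12Q against 48Q (-1.21 ± 0.98, 0.456). The second 12Q library was above the first for Nlrc5, Tap1, Tap2, Psmb8, Psmb9 and H2-Q4, and below it for B2m, H2-K1, H2-D1 and H2-T23. Of 16 genes induced by type I interferon, 6 were higher in 12Q against WT (median 2.35, 1 to 11 with each library left out), among them Irf7 (2.36 ± 0.38, edgeR adjusted p = 0.0111) and Oas1a (5.15 ± 0.68, 0.00695). In 48Q against WT the same 2 genes were called, Irf7 (1.81 ± 0.37, edgeR adjusted p = 0.0489) and Oas1a (4.76 ± 0.67, 0.0227). The 48Q median was 1.69, with 7 higher at an unadjusted p under 0.05 and 8 by DESeq2. Above 0 were 13 of the 16 in 12Q and 14 in 48Q, and between tumors edgeR called 0 (median 0.01). Over all genes, 11.2% were called higher in 12Q and 3.95% in 48Q against WT. The summed level of the 16 genes was 346 and 861 CPM in 12Q, 584 and 555 CPM in 48Q and 234 and 309 CPM in WT, so the second 12Q library stood highest here too.

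Of 18 tested genes of interferon-γ signalling and its targets, 4 were called higher in 12Q against WT (median 1.07, 0 to 6 with each library left out). Among them were the receptor chain Ifngr2 (1.17 ± 0.26, edgeR adjusted p = 0.0273), the GTPase Irgm1 (1.26 ± 0.32, 0.0362) and the tryptophan-degrading enzyme Ido1, which had no count in WT and 3.51 and 44.8 CPM in 12Q. In 48Q against WT the median was 1.11 and edgeR called 0 (3 higher at an unadjusted p under 0.05, and 1 with DESeq2). Over all genes, 11.2% were called higher and 11.2% lower in 12Q against WT, and 3.95% and 1.23% in 48Q against WT. Ifng itself did not pass the filter on low counts. The 12 factors that bind MHC promoters (the RFX and NF-Y subunits, Creb1, Irf1, Irf2, Irf8, Rela and Nfkb1) gave 0 calls in each comparison by edgeR and by DESeq2, with medians from 0.04 to 0.10 and 2 higher at an unadjusted p under 0.05 in 12Q against WT. Whether interferon genes have a part in the class I differences was not tested.

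In 48Q tumors the class II pathway was higher than in WT, together with part of class I. Of the 25 class I members, 2 were called higher (3.95% of all genes were), H2-T23 and H2-T24, and 0 lower (1.23% of all) by edgeR, with 5 higher and 0 lower at an unadjusted p under 0.05 and 3 higher and 0 lower by DESeq2. The class I median was 1.15 and 22 of 25 were above 0. H2-Q5 and H2-Q10 in class I, and H2-DMb2, H2-Oa and H2-Ob in class II, met the filter on low counts only with the 48Q libraries included. A higher 48Q value was thereby favoured for them. Of the 10 class II members, 2 were called higher, Cd74 and H2-Ab1, and all 10 were above 0, with a median of 1.74 beside 0.02 over all genes tested. At an unadjusted p under 0.05, 8 of the 10 were higher and 0 lower, and DESeq2 called 6 higher and 0 lower. With library totals in place of TMM, edgeR called 5 class I and 6 class II members higher, and Cd74 was at 2.53 in place of 1.85. Over all genes, leaving out the first WT library gave 0 calls in this comparison, and leaving out the second gave 301 higher and 220 lower, where the fit of all libraries gave 595 and 185.

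**Figure D3:**
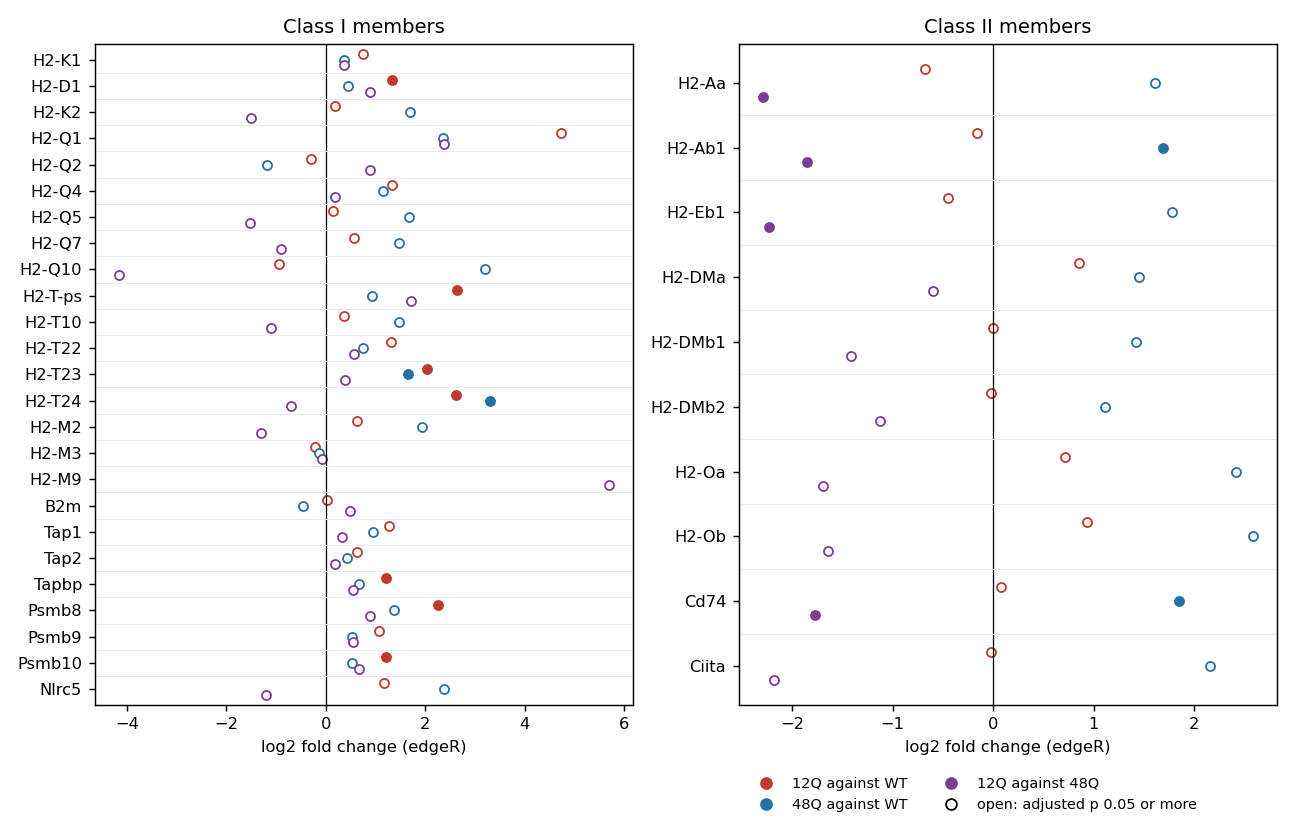
Fitted log2 fold changes of the 25 class I and 10 class II members tested, with 1 point per comparison, filled where the edgeR adjusted p was under 0.05. Comparisons of H2-M9 with WT, where it had no count, are not drawn, and the values of H2-M9, H2-Q1 and H2-Q10 rest on few counts. All 10 class II members lie above 0 for 48Q against WT and below 0 for 12Q against 48Q, while 22 of 25 class I members lie above 0 for each tumor group against WT. H2-DMb2, H2-Oa, H2-Ob, H2-Q5 and H2-Q10 met the filter on low counts only with the 48Q libraries included. H2-M9 and H2-T-ps met it only with the 12Q libraries included, so the filter favoured a higher value in these groups.

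The invariant chain Cd74 blocks the peptide groove of new class II molecules and guides them to endosomes. It was at 94.4 and 86.2 CPM in 12Q, 314 and 303 CPM in 48Q and 78.4 and 92.7 CPM in WT. The 48Q libraries stood above the other 4, among which 12Q and WT overlapped. Cd74 rose in 48Q against WT by 1.85 ± 0.22 on the log2 scale (edgeR adjusted p = 0.0172, and 0.0876 to 0.106 without the first WT or either 48Q library) and was at 0.08 ± 0.22 in 12Q against WT (0.823). In 12Q it fell by 1.77 on the log2 scale (SE 0.22) relative to 48Q, with an adjusted p of 0.0229 and of 0.0576 to 0.139 without either 12Q or either 48Q library.

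H2-Aa and H2-Ab1 encode the α and β chains of the I-A molecule, and H2-Eb1 the β chain of I-E. H2-Aa had 33.2 and 15.4 CPM in 12Q, 122 and 115 CPM in 48Q and 36.2 and 41.6 CPM in WT, so 12Q lay below WT and 48Q above it without overlap. It differed between 12Q and 48Q (-2.29 ± 0.38, edgeR adjusted p = 0.0361) and did not pass in 48Q against WT (1.61 ± 0.37, 0.0625) or 12Q against WT (-0.68 ± 0.37, 0.223). Without the first 12Q library H2-Aa was called lower in 12Q than in WT (-1.28, adjusted p = 0.0274), and without the second the difference between tumors was -1.83 (0.0588). The difference between tumors also missed the threshold without either 48Q or either WT library and with only the 2 groups in the fit, at an adjusted p of 0.0521 to 0.154.

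H2-Ab1 stood at 23.9 and 13.5 CPM in 12Q, 67.1 and 67.9 CPM in 48Q and 18.5 and 23.3 CPM in WT. It rose in 48Q against WT (1.69 ± 0.33, edgeR adjusted p = 0.0448) and was lower in 12Q than in 48Q (-1.85 ± 0.33, 0.0406). With any single library left out the latter had an adjusted p of 0.0516 to 0.204, and the former 0.0734 to 0.229 without a 48Q or WT library. H2-Eb1 had 29.5 and 13.0 CPM in 12Q, 102 and 96.8 CPM in 48Q and 24.7 and 33.1 CPM in WT, with 12Q and WT overlapping. It was lower in 12Q than in 48Q (-2.23 ± 0.42, adjusted p = 0.0437) and at 1.78 ± 0.41 in 48Q against WT (0.0616). The difference between tumors missed the threshold without the second 12Q library, either 48Q or either WT library, and with only the 2 groups in the fit (adjusted p = 0.0573 to 0.19). H2-Ea-ps had no count in any library, where 3 counts correspond to 0.0856 to 0.156 CPM, and H2-Eb2 had 19 counts in 48Q and 2 in WT, below the filter.

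The peptide editors exchange peptides on class II in endosomes (H2-DM) or restrain that exchange (H2-DO). H2-DMa was at 5.22 and 4.33 CPM in 12Q, 7.77 and 6.73 CPM in 48Q and 2.56 and 2.74 CPM in WT, an order of 48Q, 12Q and WT without overlap. Its differences were 0.85 ± 0.41 for 12Q against WT (edgeR adjusted p = 0.181), 1.45 ± 0.41 for 48Q against WT (0.0949) and -0.60 ± 0.40 for 12Q against 48Q (0.376). H2-DMb1 had 1.48 and 1.21 CPM in 12Q, 4.03 and 3.17 CPM in 48Q and 1.10 and 1.59 CPM in WT, and did not pass in 48Q against WT (1.42 ± 0.53, 0.163). The table gives H2-DMb1 and H2-DMb2 the same span, so reads may not have been separable between them. H2-Oa and H2-Ob reached at most 0.54 and 1.20 CPM.

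Ciita, the regulator without which class II genes are hardly transcribed, was at 0.814 and 2.07 CPM in 12Q, 6.59 and 6.59 CPM in 48Q and 0.991 and 1.95 CPM in WT. The 48Q libraries were again apart from the other 4, and 12Q overlapped WT. With 2.16 ± 0.65 in 48Q against WT (edgeR adjusted p = 0.106) and -2.18 ± 0.65 in 12Q against 48Q (0.105), Ciita had differences of the size of the class II chains but did not pass. Within libraries, Cd74 per kilobase was 2.74 and 5.37 times H2-Aa in the 12Q libraries, 2.47 and 2.53 times in those of 48Q and 2.08 and 2.14 times in WT. H2-Aa was 1.23 and 1.01 times H2-Ab1 in the 12Q libraries, 1.61 and 1.497 times in those of 48Q and 1.73 and 1.58 times in WT.

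Between the tumor genotypes, class II was lower in 12Q than in 48Q, while no class I member passed the test. Of the 10 class II members, 4 were called lower (3.16% of all genes were), namely Cd74, H2-Aa, H2-Ab1 and H2-Eb1, and 0 higher (1.01% of all). The filter on low counts favoured a lower 12Q value for H2-DMb2, H2-Oa and H2-Ob, which met it only with the 48Q libraries included. All 10 were below 0, with a median of -1.74 beside 0.00 over all genes tested. At an unadjusted p under 0.05, 6 were lower and 0 higher, and DESeq2 called 5. The number called was 0 to 2 with each library left out, and 0 without the second 12Q or either 48Q library. Among the 25 class I members edgeR called 0, DESeq2 called 2 (H2-D1 and H2-M9), and 4 were higher and 1 lower at an unadjusted p under 0.05. The class I median was 0.37 and 16 of 25 were above 0, but without the second 12Q library it was -0.19. This comparison and those with WT share libraries, so they are not independent of each other.

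Markers of the cells that normally make class II were read beside these values. In bulk tissue, fewer cells of a type and less RNA per cell cannot be told apart. The summed level of the 12 class II members was 189 and 136 CPM in 12Q, 626 and 601 CPM in 48Q and 163 and 198 CPM in WT. The 12 macrophage markers summed to 391 and 566 CPM, 626 and 627 CPM, and 230 and 334 CPM in the same order. For 12Q against WT, 9 of 12 were called higher and 1 (Mertk) lower (11.2% of all genes were in each direction). For 48Q against WT 8 were called higher (3.95% of all genes were). Between tumors 0 were called, where 1.01% of all genes were higher and 3.16% lower. Between tumors 10 of the 12 were below 0 in 12Q against 48Q and 2 above (median -0.28). At an unadjusted p under 0.05, Mrc1 (-1.45 ± 0.32, edgeR adjusted p = 0.0582) and Csf1r (-0.75 ± 0.26, 0.143) were lower and Cd14 (1.41 ± 0.47, 0.129) was higher. DESeq2 called 1 macrophage marker higher and 1 lower between tumors. Adgre1, the macrophage antigen F4/80, was at 17.9 and 20.9 CPM in 12Q, 26.4 and 23.2 CPM in 48Q and 4.49 and 3.63 CPM in WT. For class II, edgeR called 2 of the 10 members tested higher than WT in 48Q tumors (3.95% of all genes were) and 0 in 12Q tumors (11.2% of all). Whether macrophage number has a part in the class II values was not tested.

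**Figure D4:**
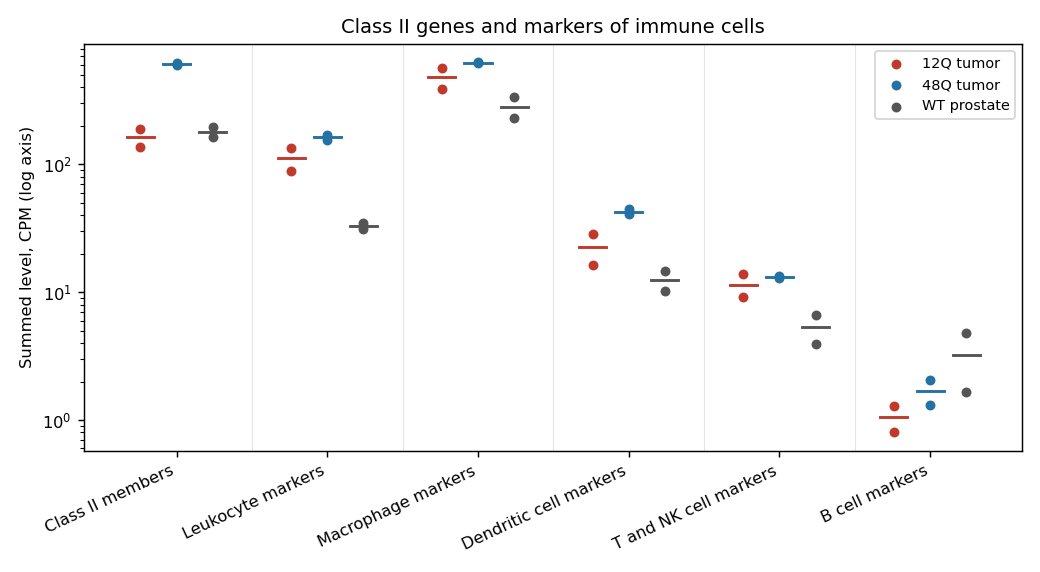
Summed CPM (log axis) of the 12 class II members and of the marker lists of leukocytes (5 genes), macrophages (12), dendritic cells (9), T and NK cells (9) and B cells (6), with 1 point per library, bars at group means and 2 libraries per group. The class II sum lies at 136 to 198 CPM in 12Q and WT libraries alike and at 601 and 626 CPM in 48Q, while the leukocyte and macrophage sums are higher than WT in both tumor groups.

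The class II sum divided by the macrophage sum was 0.484 and 0.241 in the 12Q libraries, 1.00 and 0.959 in those of 48Q and 0.708 and 0.591 in WT, with the 12Q libraries lowest. Mertk alone gave 93.1 and 231 CPM of the macrophage sum in WT, against 44.9 and 23.6 CPM in 12Q and 65.6 and 60.3 CPM in 48Q. The place of WT beside 48Q in this ratio therefore leans on that gene, which was lower in tumors unlike most of its list. Divided by the sum of 5 general leukocyte markers, class II stood at 2.13 and 1.02 in the 12Q libraries, 3.69 and 3.86 in those of 48Q and 4.65 and 6.36 in WT. Divided by the sum of the 9 dendritic cell markers it stood at 11.6 and 4.78 in 12Q tumors, 13.97 and 14.8 in 48Q tumors and 11.1 and 19.4 in WT prostate, where 12Q and WT overlapped. Ptprc, the CD45 antigen of all leukocytes, had 8.14 and 13.2 CPM in 12Q, 42.7 and 37.2 CPM in 48Q and 5.37 and 10.7 CPM in WT. It rose in 48Q against WT (2.31 ± 0.44, edgeR adjusted p = 0.0422), and 12Q and 48Q differed by -1.91 ± 0.43 (0.0615). Of the leukocyte list, 3 of 5 were called higher in 12Q (11.2% of all genes were) and 4 of 5 in 48Q against WT (3.95% of all). Between tumors 0 were called (1 lower at an unadjusted p under 0.05 and 1 by DESeq2). Unlike Ptprc, the markers Coro1a, Laptm5, Itgb2 and Cd53 lay above both WT libraries in each 12Q library. They stood at 1.74 ± 0.34, 2.02 ± 0.24, 2.32 ± 0.54 and 1.82 ± 0.54 in 12Q against WT, where Cd53 was not called. Between tumors they differed by -0.58, -0.38, -0.32 and 0.15 in the same order.

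The 9 dendritic cell markers summed to 16.4 and 28.5 CPM in 12Q, 44.8 and 40.6 CPM in 48Q and 14.7 and 10.21 CPM in WT. In 12Q against WT 2 of the 9 were called higher and 2 lower (median -0.06), and in 48Q against WT 2 higher and 0 lower (median 2.51, with 6 higher and 0 lower at an unadjusted p under 0.05 and 4 higher and 0 lower by DESeq2). Over all genes, 11.2% were called higher and 11.2% lower in 12Q against WT, and 3.95% and 1.23% in 48Q. Itgax (CD11c), which macrophages can also carry, was called higher in 12Q (2.80 ± 0.57, edgeR adjusted p = 0.0206) and in 48Q (3.64 ± 0.59, 0.0303) against WT. Ccr7, the other marker called higher in 12Q, had 2.18 and 2.04 CPM in 12Q, 1.42 and 2.34 CPM in 48Q and 0 and 0.133 CPM in WT. It stood at 4.83 ± 1.03 in 12Q (edgeR adjusted p = 0.0234) and 4.66 ± 1.02 in 48Q (0.0556) against WT, resting on few WT counts. Flt3 was called higher in 48Q (3.70 ± 0.67, 0.0382) and was at 2.10 ± 0.67 in 12Q (0.0678). Cd209a, a lectin of monocyte-derived and conventional dendritic cells, had 0.148 and 0.0619 CPM in 12Q, 2.38 and 2.68 CPM in 48Q and 0.939 and 0.575 CPM in WT. It was lower in 12Q than in WT (-2.82 ± 0.73, edgeR adjusted p = 0.0397) and than in 48Q (-4.56 ± 0.74, 0.0336). Siglech, a lectin of plasmacytoid dendritic cells, was also lower in 12Q than in WT (-3.52 ± 0.85, adjusted p = 0.0330). Between tumors 7 of the 9 were below 0 (median -1.60), with 1 called lower by edgeR (3.16% of all genes were). DESeq2 called 1 of the 9 lower between tumors, and 4 were lower at an unadjusted p under 0.05. The 6 B cell markers summed to 0.805 to 4.78 CPM and the 9 T and NK cell markers to 3.96 to 13.8 CPM over the 6 libraries, and edgeR called 0 of either list in any comparison. For the B cell list 1 was lower at an unadjusted p under 0.05 and by DESeq2 in 12Q against WT, with 0 in the other comparisons. For T and NK cells, 2 were higher and 1 lower at that level in 12Q against WT and 1 lower between tumors, and DESeq2 called 1 higher in 12Q against WT. No marker in these lists was at 0 in all libraries. The part of immune cell number in the class II and class I differences was not tested.

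A further 8 genes of the class II pathway were read, comprising the endosomal proteases Ctss, Ctsl, Ctsb, Ctsd and Lgmn, the thiol reductase Ifi30, the ubiquitin ligase March1 and the tetraspanin Cd63. Of these, 4 were called higher for 12Q against WT (11.2% of all genes were) and 3 for 48Q against WT (3.95% of all). Between tumors edgeR called 0 (2 higher and 1 lower at an unadjusted p under 0.05, and 2 higher by DESeq2). Ctss, the protease that makes the last cut in the invariant chain, was at 105 and 139 CPM in 12Q, 146 and 146 CPM in 48Q and 21.9 and 15.2 CPM in WT. It rose in both tumor groups against WT (2.72 ± 0.28, edgeR adjusted p = 0.00426 in 12Q, and 2.98 ± 0.29, 0.0103 in 48Q). Lgmn, an asparaginyl endopeptidase, had 125 and 156 CPM in 12Q, 76.6 and 81.8 CPM in 48Q and 19.8 and 18.9 CPM in WT (2.86 ± 0.23, 0.00274 and 2.03 ± 0.22, 0.0135). Ctsb rose in both as well, and Ctsd in 12Q (1.37 ± 0.37, 0.0441). March1, which removes class II from the cell surface, had 2.29 and 2.82 CPM in 12Q, 5.24 and 6.27 CPM in 48Q and 1.77 and 1.28 CPM in WT. It did not pass in 48Q against WT (1.91 ± 0.48, edgeR adjusted p = 0.0723) or in 12Q against 48Q (-1.17 ± 0.46, 0.175).

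Genes of the T cells that read MHC molecules were low throughout. Of Cd8a, Cd8b1, Cd4, Cd28 and Icos, edgeR called only Cd28, the costimulation receptor, lower in 12Q against WT (11.2% of all genes were). Cd28 stood at -2.55 ± 0.62 (edgeR adjusted p = 0.0335), with 0.888 and 0.495 CPM in 12Q against 2.76 and 5.35 CPM in WT. Cd8a, the receptor chain that binds class I, was at 2.18 and 2.01 CPM in 12Q, 4.22 and 4.28 CPM in 48Q and 0.261 and 1.64 CPM in WT (48Q against WT 2.14, adjusted p = 0.176). H2-Ke6, the enzyme among the H2- symbols, lay lower in all 4 tumor libraries than in WT, with 22.6 and 10.52 CPM in 12Q, 20.6 and 16.9 CPM in 48Q and 36.2 and 33.9 CPM in WT. It did not pass in 12Q (-1.08 ± 0.40, edgeR adjusted p = 0.0984) or 48Q (-0.90 ± 0.40, 0.22) against WT. Of the 50-base windows in its transcripts, 70.5% also occur in another gene, so its level is uncertain.

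Other cell types of the prostate differed between the groups as well. Markers of basal epithelium (4 of 4), smooth muscle (4 of 4) and fibroblasts (3 of 6) were lower in 12Q than in WT (11.2% of all genes were). In each list 3 were lower in 12Q than in 48Q (3.16% of all). Of 8 luminal epithelium markers, 1 (Pbsn, the secreted protein probasin) was called lower in 12Q against WT, at 3.33 and 5.14 CPM in 12Q, 3954 and 2248 CPM in 48Q and 28214 and 16143 CPM in WT. The other 7 summed to 6278 and 5618 CPM in 12Q, 3284 and 3245 CPM in 48Q and 8251 and 5229 CPM in WT. Among endothelial markers, 2 of 6 (Cdh5 and Pecam1) were called higher and 1 lower in 12Q against WT (11.2% of all genes were in each direction). Among neutrophil markers, 3 of the 4 tested were called higher in 12Q (11.2% of all genes) and 2 of 4 in 48Q against WT (3.95% of all). The share of RNA from each cell type was not measured, and its part in the class I and class II values was not tested.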

How the data were processed

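RNA from fresh prostate tumors or normal prostate was extracted with RNA-Bee, and libraries were prepared by the Kapa RNA HyperPrep kit, as the labels' protocols state. The deposited table holds whole-number read counts per gene for 6 libraries, with each gene's position and its length in kilobases. Per the submitters' processing notes, TopHat2 2.0.14, HTSeq 0.6.0 and the build mm10 were used. Which annotation was counted, whether by strand, and how multi-mapped reads were handled was not given in the sources used here.

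From these counts, edgeR 4.0.16 (R 4.3.3) fitted 1 quasi-likelihood model of 3 groups without a replicate block, after filterByExpr (minimum count 10, minimum total 15) and TMM scaling, with 3 residual degrees of freedom. p-values were Benjamini-Hochberg adjusted over the 15050 genes tested, with a threshold of 0.05. A standard error is the absolute log2 fold change divided by the square root of F. The fit was also run on simulated counts with large changes and a dispersion below that of these data (common dispersion 0.143). That run does not show how the fit performs at the differences reported here. Alternatives were DESeq2 1.42.0, its size factors, library totals, no filter, only the 2 groups compared, a replicate block and each library left out. Exon overlaps and shared 50-base windows came from GENCODE M21.

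Values in every library are given for members that passed with a mean of at least 10 CPM in their highest group, the 2 most abundant members of each role, and the core members whatever their result. Other genes came from lists of the pathway and of cell types, named where they passed or by abundance. Members and lists were chosen with earlier results of these data known.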

Additional observations from a re-analysis of the deposited data

Results flagged for a closer look

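The differences between the 2 tumor genotypes against the same WT libraries were tested directly, as the 12Q minus 48Q term of the edgeR fit, and 4 class II genes passed. Cd74 differed by -1.77 on the log2 scale (adjusted p = 0.0229), H2-Ab1 by -1.85 (0.0406) and H2-Eb1 by -2.23 (0.0437). H2-Aa differed by -2.29 (adjusted p = 0.0361), and both of its 12Q libraries lay below both WT libraries while both 48Q libraries lay above them. Both tumor groups are compared with the same WT libraries, so these differences are those between the tumor groups themselves.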

How the results depend on the processing

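DESeq2's size factors within edgeR kept every named member on its side of the threshold. With only the 2 groups compared in the fit, the counts called were 3 of class I in 12Q against WT, 4 of class II in 48Q against WT, and 1 of class I and 1 of class II in 12Q against 48Q, a fit with fewer libraries to estimate the spread. Library totals in place of TMM gave 5 class I and 6 class II members in 48Q against WT. DESeq2 gave 6 class II members in 48Q against WT and 2 class I members in 12Q against 48Q. The cause of these shifts was not tested. With 1 library left out at a time, which assumes that a lone library varies like the other groups, class I calls ran from 2 to 7 in 12Q against WT, 0 to 3 in 48Q against WT and 0 to 0 between tumors. Class II calls ran from 0 to 1, 0 to 4 and 0 to 2 in the same order. Class I against WT in 12Q fell to 2 without either 48Q or the first WT library and to 4 without the second 12Q or second WT library. In 48Q against WT, class I gave 0 calls without either 48Q or either WT library, and class II gave 0 without either 48Q or the first WT library, 1 without the second WT library and 4 without either 12Q library.

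A replicate block gave 5 class I calls for 12Q against WT and 1 for 48Q against WT, where the fit without it gave 8 and 2, and left the class II counts as they were. The labels do not say that a number marks a shared litter or day. The deviations of same-numbered libraries correlated across genes at 0.025 (12Q and 48Q), 0.134 (12Q and WT) and -0.103 (48Q and WT). These values cannot tell whether same-numbered libraries share a litter, day or batch, so pairing remains unknown.

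The differences that changed sign all had an adjusted p over 0.05 in the fit reported. In 12Q against WT, library totals gave 0.31 for H2-Ab1, 0.014 for H2-Eb1, 0.48 for H2-DMb1 and 0.48 for Ciita, no filter gave 0.0033 for H2-DMb1, and the replicate block gave -0.11 for B2m. With 1 library left out at a time in that comparison, B2m ran from -0.89 to 0.60, Tap2 from -0.0026 to 1.12, Nlrc5 from -0.69 to 2.59, H2-Ab1 from -0.58 to 0.20, H2-Eb1 from -1.11 to 0.031, H2-DMb1 from -0.24 to 0.29, Ciita from -0.85 to 0.54 and Cd74 from -0.034 to 0.20. In 48Q against WT, library totals gave 0.24 for B2m. Between tumors, leaving out 1 library gave -0.46 to 1.07 for B2m, -0.38 to 0.62 for H2-Q4, -0.23 to 0.78 for Tap1 and -0.43 to 0.66 for Tap2, with the lowest value of the last 3 without the second 12Q library. For H2-M9, H2-T-ps, Nlrc5 and the H2-O genes the low counts limit what can be told.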
